A study of Rattus norvegicus with 12 samples.

Results

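Transcripts of 10 genes that mark cardiac fibroblasts or their activation were followed in failing and control rat hearts: Pi16, S100a4, Vim, Pdgfra, Thy1, Tcf21, Ddr2, Fap, Olfml3 and Dpt. They were chosen by name with earlier results of these data known, so comparisons with all probe sets describe them and are not an independent test. Every probe set annotated to exactly 1 of these symbols was used. This gave 15 of the 31042 probe sets on the array, for 10 of its 14217 named genes. Pi16, Thy1 and Dpt had 2 probe sets each, Ddr2 had 3, and the others had 1.

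Fibroblasts are the cells that make and maintain the collagen matrix of the heart. In the resting heart they are recognised by the platelet-derived growth factor receptor Pdgfra and by Tcf21, a transcription factor of the epicardial lineage from which many of them descend. When the heart is overloaded or injured, fibroblasts can become activated, take on contractile and secretory features, and deposit matrix, which stiffens the muscle. Several of the 10 genes are not restricted to fibroblasts: Vim is also made by endothelial and immune cells, S100a4 by immune cells, and Thy1 by lymphocytes and neurons.

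Messenger RNA was measured on 12 arrays of 1 colour, 1 for each heart, from 6 failing and 6 control hearts that the labels call biological replicates. The series deals with the spontaneously hypertensive rat, an inbred strain with high blood pressure that passes from hypertrophy to heart failure. The sources used here give neither the strain, age and treatment of the control animals nor the age of the failing ones, nor the heart chamber sampled. Each array had been scaled to nearly the same level (trimmed mean intensity from 500.19 to 500.23), and median intensities ran from 120.8 to 144.2. Precision is set by the number of arrays. RNA of heart tissue comes from several cell types together, so more fibroblasts and more RNA per fibroblast cannot be told apart.

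All 15 probe sets were higher on average in failing hearts, against 47.4% of all probe sets, and their differences ran from 0.07 to 2.18 on the log2 scale with a median of 0.57 (median of all 31042 probe sets, -0.0235). S100a4, Vim, Olfml3, Pi16 and Dpt rose, each in 1 probe set, by 1.72-fold to 3.38-fold. Pdgfra, Thy1, Tcf21, Ddr2 and Fap did not pass the test. The calls come from limma among the 15521 brighter probe sets, those whose mean over the 12 arrays was at or above the median of all probe sets (log2 intensity 6.94), where 14 of the 15 lay. There 5 of 14 members were called higher (35.7%) and 0 lower at an adjusted p under 0.05, against 2.76% of the brighter probe sets called higher and 1.48% called lower. Over all 31042 probe sets limma called 0 members and 0 probe sets of any kind (0.0%), although 4495 had an unadjusted p under 0.05. Of the members, 8 of 15 had such a p, all of them higher, against 7.25% of all probe sets. Among the brighter probe sets, where all 8 lay, the share higher with such a p was 13.2%. When limma's variance was allowed to depend on intensity, 5 members were called over all probe sets too, the same 5, against a background of 1.2% called higher. In 4 of the 15 probe sets every failing heart lay above every control heart. This held in 0.989% of all probe sets and 1.78% of the brighter ones.

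**Figure D1:**
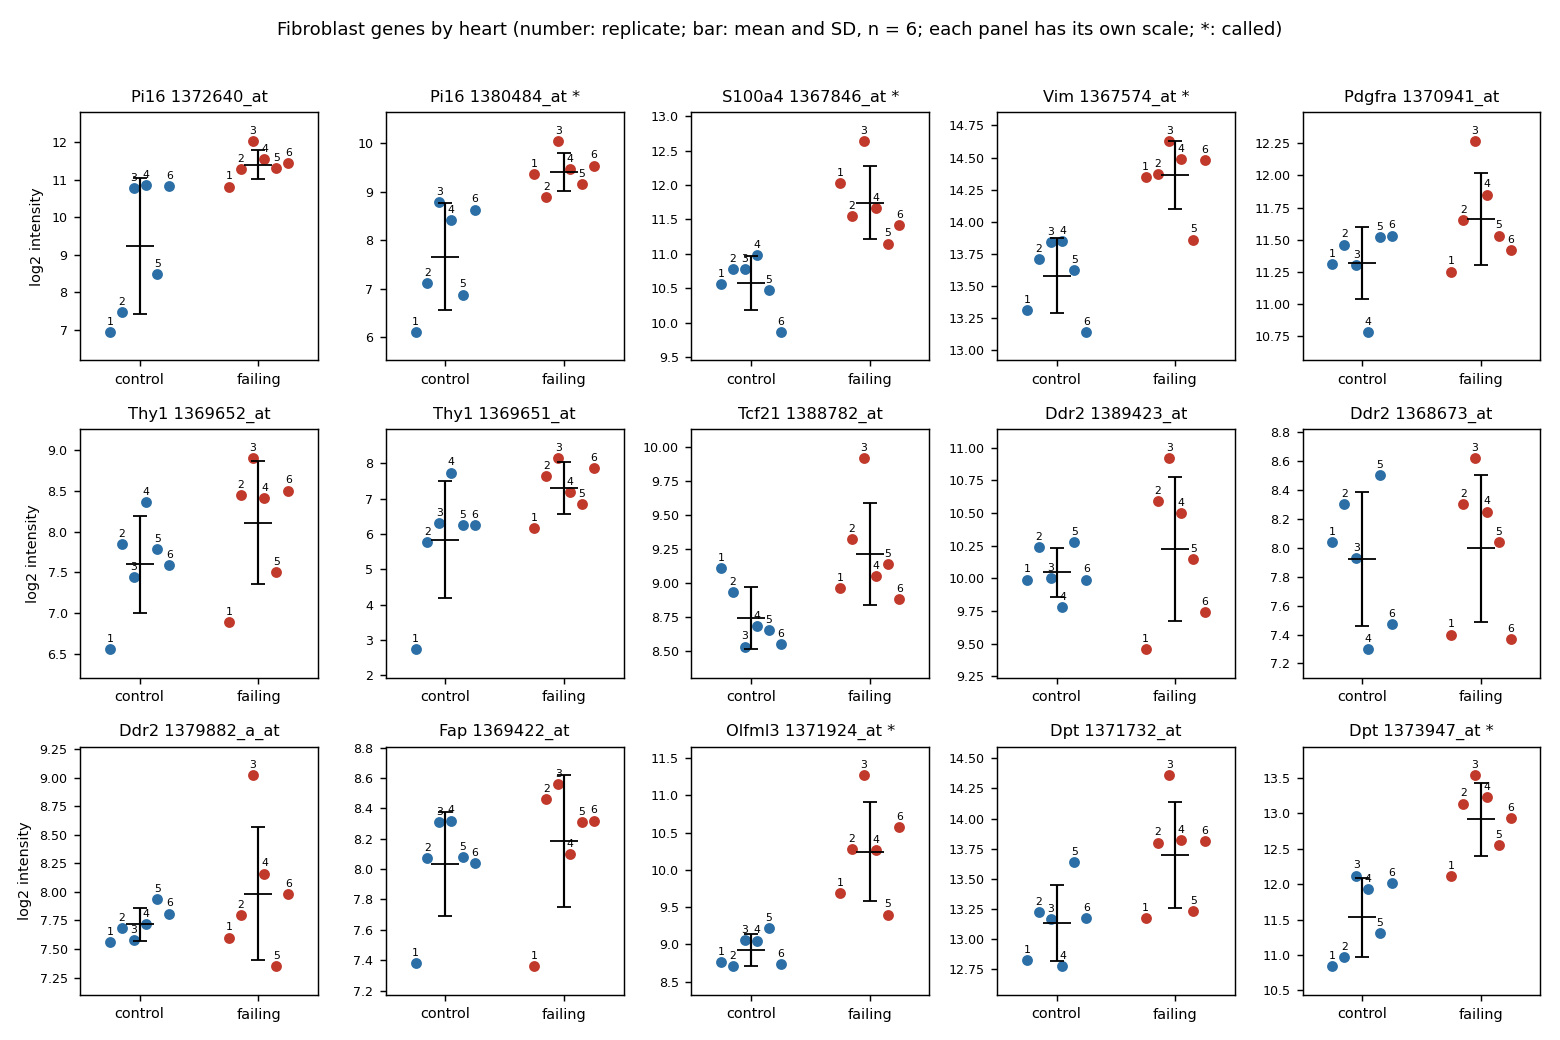
Log2 intensity of each of the 15 probe sets in the 6 control (blue) and 6 failing (red) hearts. Numbers give the replicate, bars the mean and SD, and an asterisk marks the 5 probe sets called higher; failing replicate 3 was the highest failing heart in all 15 panels.

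**Figure D2:**
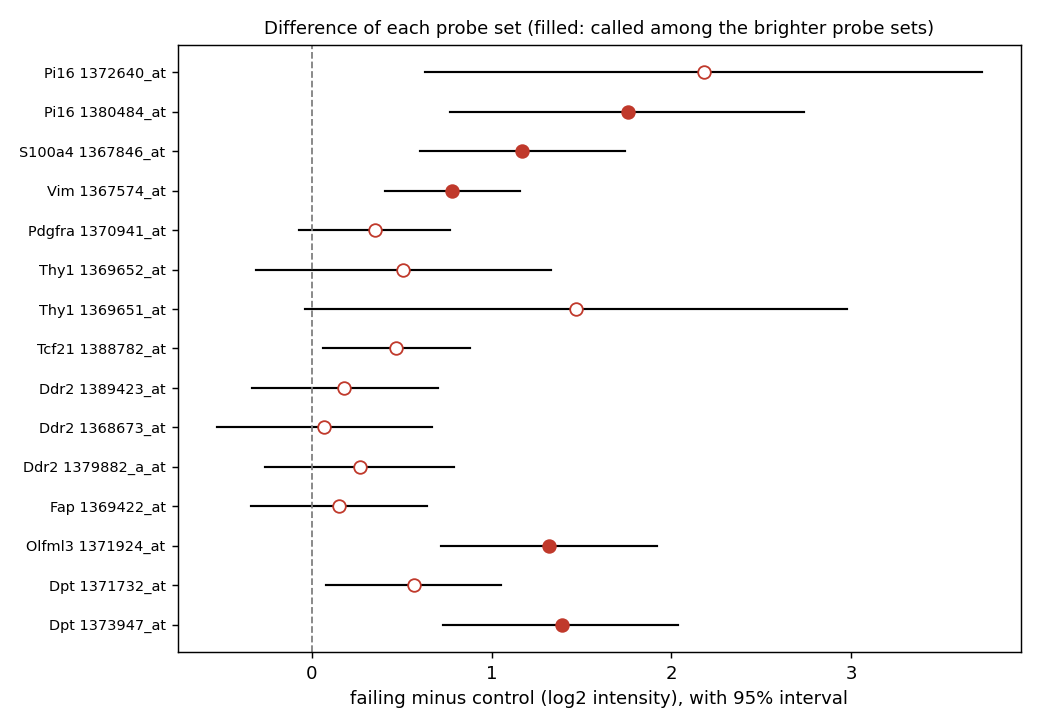
Failing minus control difference (log2 intensity) of each probe set with its 95% interval from limma over all probe sets. Filled points mark the 5 probe sets called among the brighter ones; the 3 Ddr2 probe sets and Fap lie near 0.

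The number of calls depended on single hearts. It was 0 when any 1 of failing hearts 4 and 6 and control hearts 1 and 6 was left out, and 1 (Olfml3) without failing heart 3. Leaving out control hearts 5, 2 and 4 in turn gave 2, 3 and 6 calls. Counts over the whole table moved with it, to 0.232% of brighter probe sets called higher without failing replicate 3 and 0.129% without control replicate 6. The differences themselves stayed above 0 in all 15 probe sets, or in 14 of them, whichever heart was left out.

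The promoters of the 5 genes that rose are shown, and their common direction follows from that choice. Their patterns over the hearts differed. Control replicate 6 was the lowest control heart for S100a4 and Vim, and control replicate 1 for Pi16 and Dpt 1373947_at. Sequences are from RefSeq (GRCr8), which had entries for 8 of the 10 genes, and run from 250 bases before to 50 bases after the annotated start. They lie at chr20:7377703-7378002 on the plus strand for Pi16, chr2:178388279-178388578 on the plus strand for S100a4, chr17:81577011-81577310 on the plus strand for Vim, chr2:193935445-193935744 on the minus strand for Olfml3 and chr13:79656091-79656390 on the plus strand for Dpt. Capitals mark matches on either strand to 5 motifs: CAGCTG (an E-box), TGANTCA (AP-1), GGAATG (TEAD), GGGCGG (GC box) and CAGAC (SMAD).
Pi16: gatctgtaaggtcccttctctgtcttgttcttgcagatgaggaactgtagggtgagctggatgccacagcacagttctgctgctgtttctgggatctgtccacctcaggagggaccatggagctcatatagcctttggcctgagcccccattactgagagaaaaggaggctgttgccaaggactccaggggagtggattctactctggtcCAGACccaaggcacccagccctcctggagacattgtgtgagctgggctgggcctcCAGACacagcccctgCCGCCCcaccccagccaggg
S100a4: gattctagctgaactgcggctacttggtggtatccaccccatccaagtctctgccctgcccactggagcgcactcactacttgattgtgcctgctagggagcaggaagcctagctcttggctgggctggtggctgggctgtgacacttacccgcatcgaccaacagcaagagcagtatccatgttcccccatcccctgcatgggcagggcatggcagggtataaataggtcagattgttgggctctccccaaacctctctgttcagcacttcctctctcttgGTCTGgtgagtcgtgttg
Vim: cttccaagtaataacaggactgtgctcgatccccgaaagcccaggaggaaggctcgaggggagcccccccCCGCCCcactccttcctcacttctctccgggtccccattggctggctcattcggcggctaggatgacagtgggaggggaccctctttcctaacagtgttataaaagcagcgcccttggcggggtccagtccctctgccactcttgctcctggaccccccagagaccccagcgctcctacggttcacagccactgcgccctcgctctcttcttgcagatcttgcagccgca
Olfml3: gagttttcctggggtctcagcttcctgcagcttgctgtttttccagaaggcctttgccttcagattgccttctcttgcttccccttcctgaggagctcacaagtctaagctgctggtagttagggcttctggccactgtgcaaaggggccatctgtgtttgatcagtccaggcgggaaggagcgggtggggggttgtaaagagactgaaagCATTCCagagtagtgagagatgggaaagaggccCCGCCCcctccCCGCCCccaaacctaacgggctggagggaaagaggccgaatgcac
Dpt: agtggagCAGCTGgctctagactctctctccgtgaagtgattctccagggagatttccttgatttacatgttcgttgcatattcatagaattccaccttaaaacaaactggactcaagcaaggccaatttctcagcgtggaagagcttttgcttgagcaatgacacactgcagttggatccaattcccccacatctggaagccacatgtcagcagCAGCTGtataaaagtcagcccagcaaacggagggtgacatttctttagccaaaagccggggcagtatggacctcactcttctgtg
The matches differed from gene to gene, and none of the 5 motifs was found in all 5 windows. Dpt held CAGCTG at 2 places, and 15.1% of all promoters held at least 1. Pi16, Vim and Olfml3 held GGGCGG (33.1% of all promoters), with 2 matches in Olfml3, which also held GGAATG (14.2%). CAGAC, held by 50.1% of all promoters, lay in the windows of Pi16 and S100a4. TGANTCA (7.33%) was not in these 5 windows. Matches of different motifs did not overlap. A match describes the letters alone.

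Vimentin (Vim), the intermediate filament protein of fibroblasts and other mesenchymal cells, rose 1.72-fold. Its log2 intensity in failing hearts was 13.86 at the lowest, 14.42 at the median and 14.63 at the highest, against 13.14, 13.66 and 13.85 in control hearts. The groups did not overlap, though only narrowly, since failing replicate 5 lay just above control replicate 4. The difference was 0.78 ± 0.17 (SE, 95% interval 0.41 to 1.16, n = 6 in each group), with an adjusted p of 0.0276 by limma among the brighter probe sets and 0.129 over all probe sets. Leaving out any 1 of failing hearts 3, 4 and 6 and control hearts 1 and 6 ended the call, with adjusted p of 0.0586 to 0.0690. The genes of proteins that assemble with vimentin or link it to other filaments gave no call, 0 of 5 brighter probe sets of 6 genes, with a median difference of 0.08. Desmin (Des), its muscle counterpart, had the smallest p of them, at 0.25 ± 0.11 (adjusted p = 0.155).

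S100a4, a small calcium-binding protein that interacts with non-muscle myosin and is widely used as a marker of activated fibroblasts, rose 2.25-fold. Failing hearts lay at 11.15, 11.61 and 12.64 (lowest, median and highest log2 intensity) and control hearts at 9.87, 10.67 and 10.98. No failing heart fell into the range of the controls, and control replicate 6 was the lowest of all hearts. The difference was 1.17 ± 0.26 (95% interval 0.60 to 1.74), with a limma adjusted p of 0.0284 among the brighter probe sets and 0.132 over all. The call was lost when any 1 of failing hearts 3, 4 and 6 and control hearts 1, 5 and 6 was dropped, with adjusted p of 0.0515 to 0.0663. Of its partners and relatives, S100a6, S100a10, S100a11, annexin A2 (Anxa2) and non-muscle myosin Myh9, 0 of 5 brighter probe sets passed, and their median difference was 0.50. S100a11 came closest, at 0.44 ± 0.15 (adjusted p = 0.0839).

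Pi16, peptidase inhibitor 16, is a membrane-anchored or secreted protein that marks adventitial fibroblasts and can restrain cardiomyocyte growth. It had the largest difference of the members, and it was uneven among the control hearts. In probe set 1372640_at the failing hearts lay at 10.81, 11.37 and 12.03 (lowest, median and highest), while control replicates 1, 2 and 5 gave 6.94, 7.47 and 8.47 and the other controls (3, 4 and 6) gave 10.78, 10.85 and 10.83. The 3 higher control hearts therefore lay next to the lowest failing heart, and the 3 lower ones far beneath it. The difference was 2.18 ± 0.71 (95% interval 0.63 to 3.73), which did not pass (limma adjusted p = 0.0672 among the brighter probe sets). Probe set 1380484_at showed the same split, as control replicates 1, 2 and 5 gave 6.11, 7.11 and 6.88 and the other controls 8.78, 8.42 and 8.63. Every failing heart, from 8.89 to 10.05, lay above these, and this probe set rose 3.38-fold, by 1.76 ± 0.45 (95% interval 0.77 to 2.74, adjusted p = 0.0387 among the brighter probe sets and 0.156 over all). This call was lost with any 1 of failing hearts 1, 3, 4 and 6 and control hearts 1, 2, 5 and 6 left out (adjusted p of 0.0574 to 0.0930). Probe set 1372640_at passed when control heart 4 was left out (adjusted p = 0.0266), with arrays weighted by quality (adjusted p = 0.0362) and among the 7761 probe sets with the highest means (adjusted p = 0.0420).

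The split of the control hearts ran along a measure of RNA integrity. The 3' minus 5' difference of the Gapdh and beta-actin control probe sets, which grows when RNA is degraded or incompletely copied, was 0.67, 0.78 and 0.66 (log2) in control hearts 1, 2 and 5, above the 0.47, 0.36 and 0.44 of control hearts 3, 4 and 6. Failing hearts lay between 0.50 and 0.53 except for replicate 1 at 0.70, which was the lowest failing heart for 1372640_at, at 10.81, but not for 1380484_at, at 9.37. With this measure as a covariate in limma, the differences were 2.07 (adjusted p = 0.0171) for 1372640_at and 1.70 (adjusted p = 0.0202) for 1380484_at, so that both passed among the brighter probe sets. With the covariate 6 of 14 members and 3.57% of the brighter probe sets were called higher, against 5 and 2.76% without it. Probe set 1373947_at of Dpt showed the same split of the control hearts, with failing replicate 1 the lowest failing heart at 12.11, and its difference was 1.34 (adjusted p = 0.0139) with the covariate. Why the control hearts split was not tested.

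**Figure D3:**
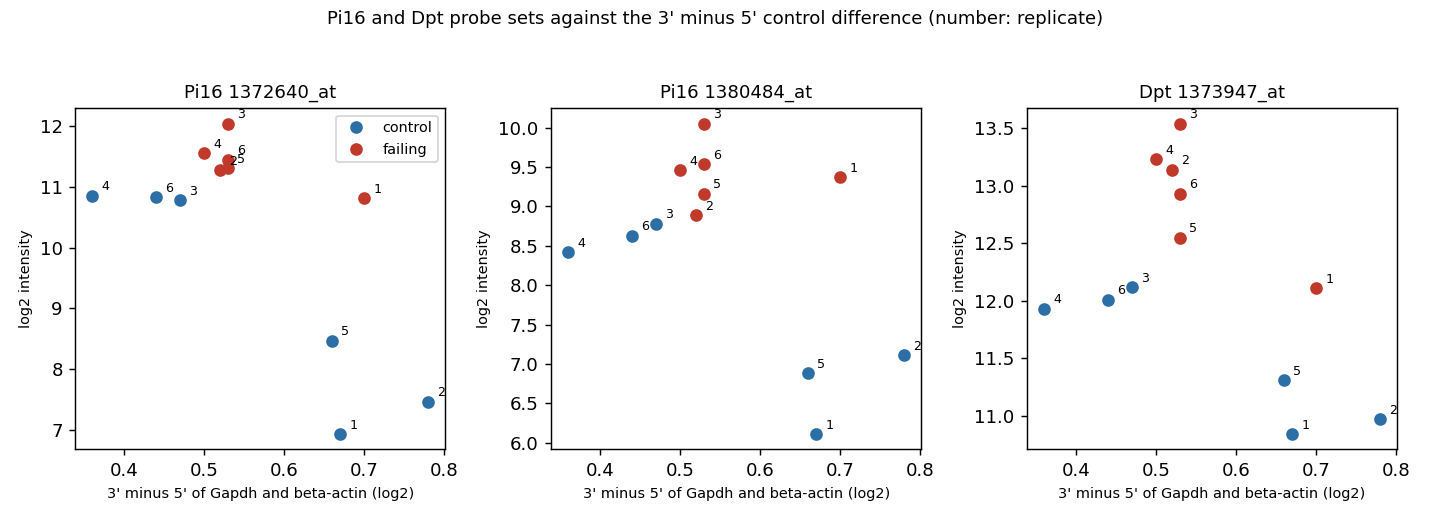
Log2 intensity of both Pi16 probe sets and of Dpt 1373947_at in each heart (vertical axis) against the 3' minus 5' difference of the Gapdh and beta-actin control probe sets (log2, horizontal axis), control hearts in blue and failing hearts in red, with replicate numbers. Control replicates 1, 2 and 5 lie low and to the right, and failing replicate 1, at 0.70, is the lowest failing heart in the first and last panels.

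Olfml3, a secreted olfactomedin-like glycoprotein of the extracellular matrix, rose 2.50-fold, and it was the member whose control hearts lay closest together among those that rose. Failing hearts lay at 9.40, 10.27 and 11.27 (lowest, median and highest) and control hearts at 8.71, 8.91 and 9.22, without overlap. The controls kept within an SD of 0.21 whereas the failing hearts spread with an SD of 0.66, failing replicate 3 being the highest and replicate 5 the lowest. The difference was 1.32 ± 0.28 (95% interval 0.72 to 1.92, limma adjusted p = 0.0273 among the brighter probe sets and 0.129 over all). The call held without 8 of the 12 hearts in turn and was lost without failing heart 4, failing heart 6, control heart 1 or control heart 6 (adjusted p of 0.0570 to 0.0642).

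Dermatopontin (Dpt), a small matrix protein that binds decorin and aids collagen fibril assembly, gave unlike values in its 2 probe sets. In 1373947_at failing hearts lay at 12.11, 13.04 and 13.54 (lowest, median and highest) and control hearts at 10.84, 11.62 and 12.12. Failing replicate 1 and control replicate 3 met at the border, and the other failing hearts lay above every control. The difference was 1.39 ± 0.30 (95% interval 0.73 to 2.04, 2.62-fold, adjusted p = 0.0276 among the brighter probe sets and 0.129 over all), and dropping any 1 of failing hearts 3, 4 and 6 and control hearts 1, 2, 5 and 6 took the adjusted p to between 0.0509 and 0.0681. In 1371732_at failing hearts lay at 13.17, 13.80 and 14.36 and control hearts at 12.77, 13.17 and 13.64, and the difference of 0.57 ± 0.22 did not pass (95% interval 0.08 to 1.05, adjusted p = 0.112), though it did with arrays weighted by quality (adjusted p = 0.0485). The gap between the differences of both probe sets was 0.82, with an exact two-sided permutation p of 0.0108 and 0.0648 after adjustment over the 6 pairs of probe sets of the same gene. Of the other pairs, the 2 of Thy1 differed by 0.96 (exact p = 0.0325, adjusted 0.0975), and those of Pi16 and Ddr2 by 0.08 to 0.42 in either direction (exact p from 0.29 to 0.69).

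None of the receptor and surface genes Pdgfra, Ddr2, Thy1 and Fap passed. Pdgfra, the receptor for platelet-derived growth factors that defines cardiac fibroblasts, lay at 11.25, 11.59 and 12.27 in failing hearts and at 10.78, 11.38 and 11.53 in control hearts (lowest, median and highest). The groups overlapped widely, with 3 of 6 failing hearts above every control. Its difference was 0.35 ± 0.19 (adjusted p = 0.238), and the 95% interval from -0.07 to 0.77 allows anything from 0.950-fold to 1.70-fold. With 1 heart left out it ran from 0.23 (without failing heart 3) to 0.43 (without failing heart 1).

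Ddr2, a receptor tyrosine kinase that binds fibrillar collagen, had 3 probe sets that gave 0.18 ± 0.24, 0.07 ± 0.27 and 0.27 ± 0.24. Their limma adjusted p among the brighter probe sets lay between 0.480 and 0.888. In 1389423_at failing hearts ranged from 9.46 to 10.92 around a median of 10.33 and control hearts from 9.78 to 10.28 around 9.99, so that failing hearts lay on both sides of the controls. The 95% interval of that probe set ran from -0.33 to 0.70. Without failing replicate 3 the differences were 0.04 in 1389423_at, -0.05 in 1368673_at and 0.06 in 1379882_a_at. Without failing replicate 1 they were 0.34, 0.19 and 0.34.

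Thy1, a glycolipid-anchored surface protein of fibroblasts, lymphocytes and neurons, lay at 6.89, 8.43 and 8.90 in failing hearts and at 6.56, 7.69 and 8.36 in control hearts in probe set 1369652_at. The difference of 0.51 ± 0.37 did not pass (95% interval -0.31 to 1.33, adjusted p = 0.371). Replicate 1 was the lowest heart in each group. The other probe set, 1369651_at, was the only member below the brightness median, and it gave 1.47 ± 0.69 (95% interval -0.04 to 2.98, adjusted p = 0.355 over all probe sets) with control replicate 1 at 2.74. Without that heart the differences were 0.85 in 1369651_at and 0.30 in 1369652_at, and without failing replicate 1 they were 1.70 and 0.76. Control replicate 4 was the highest control heart in both, at 8.36 and 7.74. It also had a summed intensity of T, B and NK cell markers of 9989, against at most 663 in the other control hearts and 897 in the failing hearts. Nkg7 and Klrd1, genes of NK and cytotoxic cells, made up 92.1% of that sum, and control replicate 4 was the highest control heart in 3 of the 10 genes, the third being Cd2. In that heart the T cell genes Cd3e, Cd3d and Cd3g lay below the highest of the other controls. These genes lay below the brightness median, so their values say little about T cells. The part of T, B and NK cells in Thy1 was not tested.

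Fap, fibroblast activation protein, is a surface protease that is widely used to mark activated fibroblasts, and it differed by 0.15 ± 0.23 (95% interval -0.34 to 0.64, adjusted p = 0.681). Failing hearts lay at 7.36, 8.31 and 8.56 and control hearts at 7.38, 8.07 and 8.32. Replicate 1 was far lower than the others in each group, and the remaining hearts of both groups lay together. The difference was 0.02 without control replicate 1 and 0.32 without failing replicate 1. Among the related peptidase genes Dpp4, Dpp8, Dpp9 and Prep, 0 of 7 brighter probe sets were higher and 2 lower, both of Dpp4, the closest relative of Fap. Dpp4 fell by 1.28 ± 0.29 in 1368163_at, from 8.48 ± 0.45 (SD) in control to 7.20 ± 0.57 in failing hearts (adjusted p = 0.0290), and 1387084_at gave -1.27 ± 0.27 (adjusted p = 0.0273).

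Tcf21, the transcription factor, lay at 8.88, 9.09 and 9.92 in failing hearts and at 8.53, 8.66 and 9.11 in control hearts. Failing replicate 3 stood above all others, and control replicate 1 lay among the failing hearts. The difference of 0.47 ± 0.19 (95% interval 0.06 to 0.88) did not pass the adjusted test (unadjusted p = 0.0279 and adjusted p = 0.284 over all probe sets, adjusted p = 0.117 among the brighter ones). Weighting the arrays by their quality brought it to an adjusted p of 0.0468. Of its dimerisation partners and other epicardial genes, 0 of 8 brighter probe sets passed, and the median difference of the 8 genes was 0.10. Wt1 differed by 0.11 ± 0.15 in its brighter probe set. Aldh1a2 (-0.42 ± 0.21, adjusted p = 0.184) and Tcf3 (-0.44 ± 0.42, below the brightness median) were lower and did not pass. Gata4 gave -0.19 ± 0.15 in 1387894_at and 0.14 ± 0.23 in 1370293_at. Tcf4 (0.11 ± 0.15 in 1368842_at) and Sema3d (0.66 ± 0.38) were higher and did not pass. Tcf12 differed by 0.10 ± 0.12 in 1388999_at and by 0.69 ± 0.31 in 1387374_at (adjusted p = 0.156). Tbx18, an epicardial factor gene below the brightness median, had the smallest p of them, at 0.77 ± 0.13 (adjusted p = 0.105 over all probe sets).

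Within the failing group the same heart led throughout. Failing replicate 3 was the highest failing heart in 15 of 15 probe sets and in all 10 genes. It was so in 16.9% of all probe sets and 19.6% of the brighter ones. Its median deviation from the probe set means was 1.05 (log2). Failing replicates 1 and 5 had the lowest medians of the failing hearts, at -0.24 and 0.04, and were the lowest failing heart in 8 and 4 probe sets. Among the control hearts no replicate led as widely, control replicate 4 being highest in 6 probe sets and replicate 5 in 5, while replicate 1 was lowest in 7 and had the lowest median, -0.66. Without failing replicate 3 the differences were 0.99 for S100a4, 0.73 for Vim, 1.12 for Olfml3, 1.63 for Pi16 1380484_at and 1.26 for Dpt 1373947_at.

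**Figure D4:**
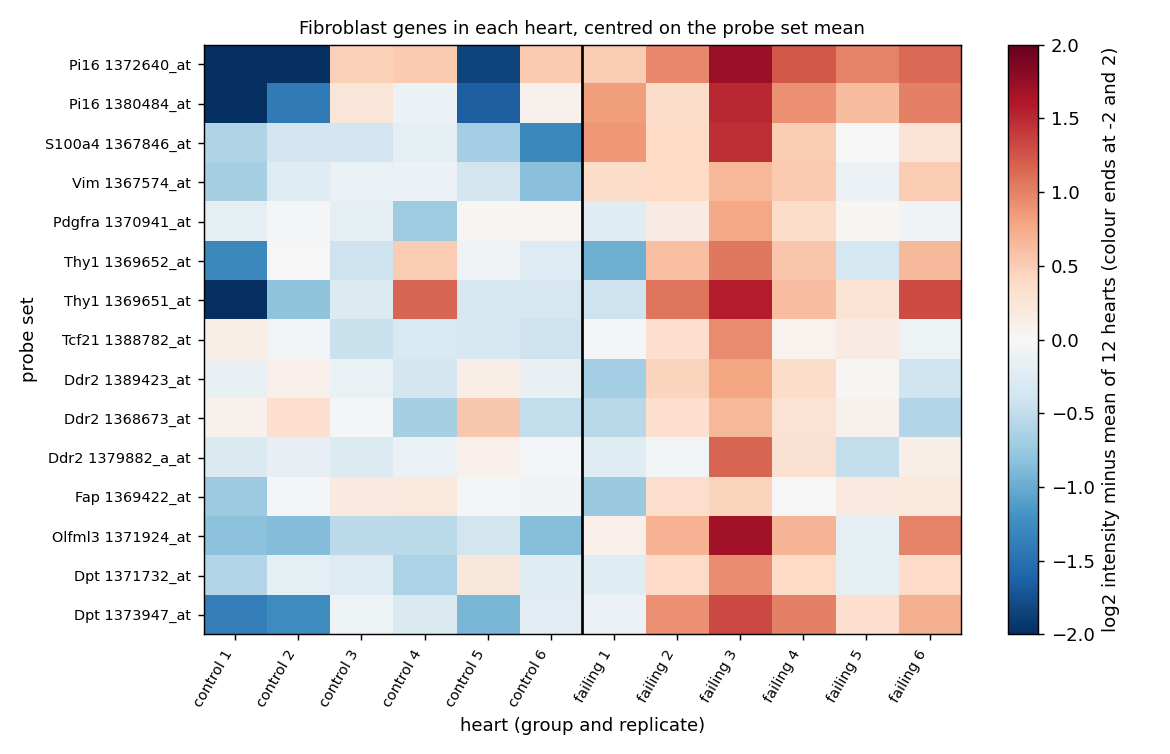
Log2 intensity of the 15 probe sets (rows) in the 12 hearts (columns), each row centred on its mean over all hearts. Red is above and blue below that mean, the colour scale ends at -2 and 2, and the vertical line parts control from failing hearts; the column of failing replicate 3 is red in every row, with a median of 1.05.

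Other genes of the fibroblast programme, from lists chosen by name with earlier results known, are given for comparison. Of matrix and surface genes of resting fibroblasts, 13 were measured, 5 of 17 brighter probe sets were higher and 0 lower, and the median difference of the genes was 0.50 (median of all 14217 genes, -0.0332). Complement C3 (1.44 ± 0.40), the complement inhibitor Serping1 (0.97 ± 0.20) and the protease Htra3 (0.95 ± 0.25 in 1372565_at) rose most, whereas the collagen-binding proteoglycan lumican (Lum, 0.22 ± 0.37) did not pass. The other brighter Htra3 probe set, 1375306_at, gave 1.56 ± 0.73 and did not pass (adjusted p = 0.165). Of genes of activated fibroblasts, 14 were measured, 6 of 13 brighter probe sets were higher and 0 lower, and the median was 1.03. Cartilage oligomeric matrix protein (Comp, 2.29 ± 0.61), fibronectin (Fn1, 1.80 ± 0.41) and lysyl oxidase (Lox, 1.55 ± 0.38 in 1368171_at), which cross-links collagen, led them. The other Lox probe set, 1368172_a_at, gave 1.07 ± 0.39 and did not pass (adjusted p = 0.0923). Smooth muscle alpha-actin (Acta2, 0.60 ± 0.25, adjusted p = 0.130), the contractile marker of myofibroblasts, and tenascin C (Tnc, 0.16 ± 0.38, adjusted p = 0.819) did not pass. The share called higher among all brighter probe sets, 2.76%, is the background for these counts.

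Ligands and partners of the receptors are set beside the same background of 2.76%. In the platelet-derived growth factor system 1 of 3 brighter probe sets was higher, that of the receptor-like Pdgfrl (1.08 ± 0.25, adjusted p = 0.0290), while the ligand Pdgfa (-0.09 ± 0.11, adjusted p = 0.594) and the receptor Pdgfrb (0.59 ± 0.18, adjusted p = 0.0589) did not pass. Among Ddr1 and the collagens that can bind Ddr2, 1 of 11 brighter probe sets was higher, 1370895_at of Col5a2 (1.18 ± 0.30, adjusted p = 0.0399). The other Col5a2 probe set, 1373463_at (0.77 ± 0.29, adjusted p = 0.101), Col1a1 (0.44 ± 0.41) and Col3a1 (0.28 ± 0.40) did not pass.

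**Figure D5:**
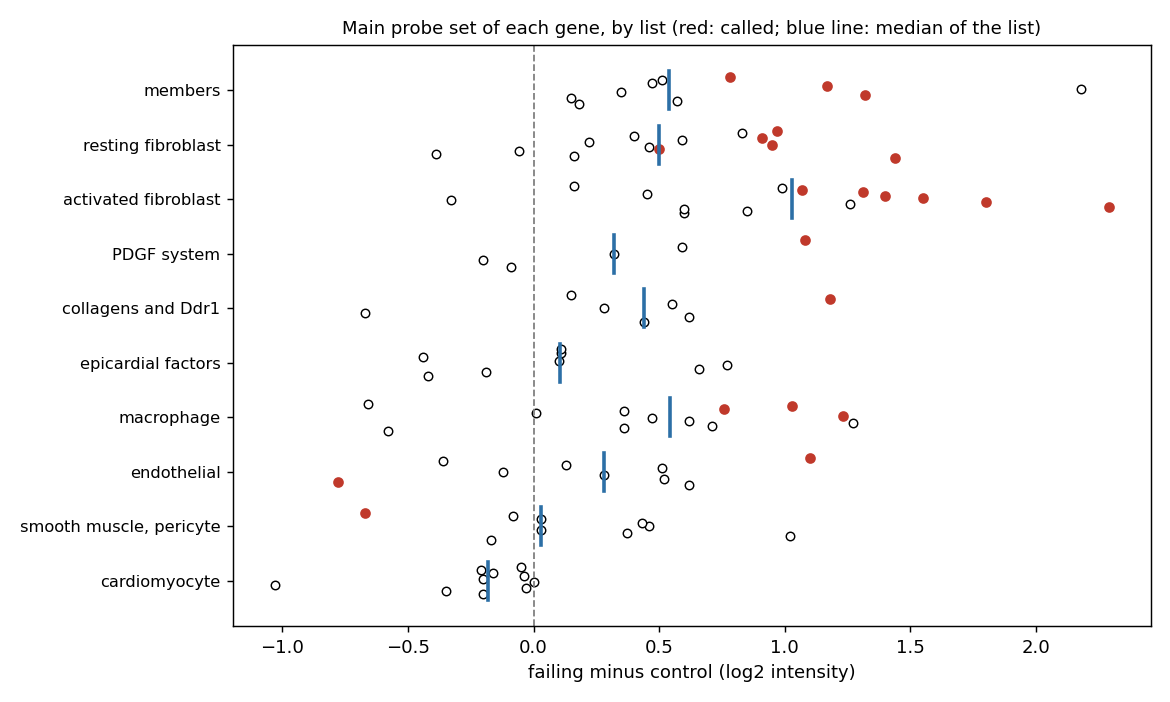
Failing minus control difference (log2 intensity) of the main probe set, that with the highest mean, of each gene in the lists. Red points were called among the brighter probe sets and blue lines give the median of each list; the median is 0.54 for the 10 fibroblast genes, 1.03 for the activated and 0.50 for the resting fibroblast list, and -0.18 for the cardiomyocyte list.

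Markers of other cell types were measured in the same hearts. Of the macrophage list, 12 genes with a median difference of 0.54, 3 of 12 brighter probe sets were higher, those of Ctss (1.23 ± 0.29), Mrc1 (1.03 ± 0.27) and Lyz2 (0.76 ± 0.20). Ptprc, the leukocyte surface protein CD45 (-0.66 ± 0.73 and -0.05 ± 0.81 in its probe sets), Adgre1 (-0.58 ± 0.47) and Fcgr1a (0.01 ± 0.27) did not pass, nor did Cd163 (1.27 ± 0.42). The summed intensity of the macrophage list ran from 16626 to 36780 in failing and from 11688 to 20393 in control hearts. Failing replicate 3 was the highest failing heart there too. The endothelial list (median 0.28, 15469 to 20681 against 13929 to 16745) had 1 of 11 brighter probe sets higher, von Willebrand factor (Vwf, 1.10 ± 0.24), and 1 lower, endomucin (Emcn, -0.78 ± 0.21), while its brightest genes Kdr (-0.12 ± 0.17) and Tek (0.13 ± 0.10) did not pass. The smooth muscle and pericyte list (median 0.03, 10696 to 13748 against 12171 to 14321) had 0 of 13 higher and 1 lower, smoothelin (Smtn, -0.67 ± 0.17 in 1372684_at). The other Smtn probe set, 1396885_at, did not pass. The brightest genes of the list were Abcc9 (-0.17 ± 0.12) and Rgs5 (-0.08 ± 0.30). Cnn1 (1.02 ± 0.33, adjusted p = 0.0652), Mcam (0.46 ± 0.22), Myh11 (0.43 ± 0.22) and Cspg4 (0.37 ± 0.15) were higher in their main probe sets and did not pass. Kcnj8 and Notch3 each differed by 0.03. Because vimentin and S100a4 are also made by macrophages and endothelial cells, these values stand beside theirs, and the part of these cells in the rises was not tested.

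The remaining lists gave 0 or 1 call each. Cardiomyocyte markers (median -0.18, summed intensity 270258 to 417378 in failing and 262010 to 429200 in control hearts) had 0 of 14 brighter probe sets called in either direction, and the brightest of its 10 measured genes were Tnnt2 (-0.05 ± 0.15) and Myl2 (0.00 ± 0.15), which encode sarcomere proteins of heart muscle. Lower values that did not pass were those of the adult myosin heavy chain Myh6 (-1.03 ± 0.35 in 1368093_at and -1.59 ± 0.52 in 1387049_at, adjusted p = 0.0774 and 0.0693), Ryr2 (-0.56 ± 0.20 in 1382775_at) and Ckm (-0.35 ± 0.20). The brighter Ryr2 probe set, 1382088_at, gave -0.16 ± 0.15. Failing replicate 3 had the lowest sum of the failing hearts and control replicate 4 that of the controls. Of the nerve and Schwann cell list 1 of 3 brighter probe sets was higher, Uchl1 (1.03 ± 0.15; Ncam1, the brightest, 0.50 ± 0.22), with a summed intensity of 4185 to 4879 in failing and 1876 to 4460 in control hearts. Of the atrial list it was 1 of 9, Dkk3 (1.41 ± 0.23 in 1370328_at), with sums of 53625 to 73773 and 41361 to 75944. The other brighter Dkk3 probe sets, 1394655_at (0.93 ± 0.29, adjusted p = 0.0585) and 1397754_at (0.56 ± 0.24, adjusted p = 0.142), did not pass. Nppa, the brightest gene of that list, differed by 0.12 ± 0.16. Myl4 (0.89 ± 0.84), Myl7 (0.36 ± 1.25) and Sln (0.03 ± 0.95) did not pass. They varied widely in both groups, with SDs of 1.98, 2.82 and 2.24 among control and 0.95, 1.68 and 1.13 among failing hearts. Mesothelial and adipocyte markers had 0 calls, and 5 of 6 and 4 of 6 of their measured genes lay below the brightness median, among them mesothelin (Msln) and adiponectin (Adipoq); their brightest genes were Lrrn4 (-0.52 ± 0.17) and Krt8 (0.24 ± 0.28), and Fabp4 (-0.26 ± 0.11) and Cfd (0.73 ± 0.32). Their summed intensities were 348 to 499 in failing and 406 to 682 in control hearts for the mesothelial and 11245 to 13451 and 13263 to 17653 for the adipocyte list. By mean log2 intensity, Nppa (15.64) outweighed the other genes in the atrial sum, Ncam1 (11.52) in the nerve sum and Fabp4 (13.69) in the adipocyte sum. Of T, B and NK cell markers 9 of 10 lay below the brightness median, Nkg7 (-1.45 ± 1.11) among them. The brightest, Cd4, differed by 0.49 ± 0.20 (adjusted p = 0.116).

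The genes whose pattern over the 12 hearts was most like that of each member were ranked by the root mean square difference of values centred and divided by their SD, where 0 is an identical pattern. For Pi16 they were Rhoa (0.22), App (0.24) and Hars1 (0.25), in single probe sets of these genes. The Rhoa probe set gave 10.83, 10.76 and 10.97 in control hearts 1, 2 and 5, which lay below the 12.37, 12.35 and 12.28 of the other controls and the 12.25 to 12.70 of failing hearts, the same split as Pi16. For Olfml3 they were Mxra8 (0.19), C1r (0.21) and Efs (0.23), for Vim they were Thbs4 (0.22), Nupr1 (0.25) and Lbp (0.27), and for S100a4 they were Tmem59 (0.31), Dkk3 (0.35) and Armcx4 (0.37). For Dpt 1371732_at they were Mylk (0.26), Itgbl1 (0.27) and Atoh8 (0.32). The nearest gene was Tor1aip2 (0.33) for Pdgfra, Tpm4 (0.33) for Thy1, Lima1 (0.42) for Tcf21, Armcx2 (0.38) for Ddr2 and Sult5a1 (0.29) for Fap. These genes are the nearest among the brighter probe sets with 1 symbol, and the values are a description.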

How the data were processed

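Heart tissue was measured on 12 arrays of 1 colour, and groups and replicate numbers were taken from the sample titles. Per the labels' protocols, RNA was extracted with Trizol and cleaned on RNeasy columns. The protocol names 4 groups, but the 12 arrays are of failing and control hearts only, and both captopril groups have no arrays here. The labels give heart as the tissue, although 1 field mentions a cell line. The authors deposited a table of linear intensity values, from 0.1 to 79913.6, for 31099 probe sets. The submitters' processing notes name RMA, yet the values are linear and scaled to a common trimmed mean (2% from each end), so the summary method is unknown. A scaling of this kind hides a shift of most genes in 1 direction. The sources used here give no detection calls and do not say whether there were batches.

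Values were converted to log2 without an offset. After 57 control probe sets were left out, 31042 were tested; 20826 carried 1 gene symbol, 436 several and 9780 none in the array annotation. Of those with 1 symbol, 20758 matched RefSeq (GRCr8), which changed 0 symbols. The test was limma 3.58.1 (R 4.3.3; lmFit, eBayes, a group term alone, two-sided, Benjamini-Hochberg, threshold 0.05), over all probe sets and over the 15521 brighter ones. Differences, SEs and 95% intervals are from the fit over all probe sets, folds are 2 to the power of the difference, and SDs are between hearts. An adjusted p stated without a fit is that among the brighter probe sets. Paired probe sets were compared by an exact permutation test over 924 arrangements (smallest p 0.00216). The fits were tested on simulated data. Figures were drawn with matplotlib 3.10.9.

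The members, lists and tests were chosen with earlier results of these data known, among them that no gene passed over all genes. Every member probe set is named; of each other list, up to 3 called genes higher and 2 lower with the largest differences or else that with the smallest p, of cell type lists the 2 brightest and the called genes, and for members the 3 genes of most similar pattern; further genes (Lum, Acta2, Tnc, Pdgfa, Pdgfrb, Col1a1, Col3a1, Wt1, Tcf12, Msln, Adipoq, Ptprc, Adgre1, Fcgr1a, Cd163, Myh6, Ryr2, Ckm, Klrd1, Cd2, Cd3e, Cd3d, Cd3g) were named after their values were seen. Myl4, Myl7, Sln, Cnn1, Mcam, Myh11, Cspg4, Kcnj8, Notch3, Aldh1a2, Gata4, Tcf3, Tcf4 and Sema3d were likewise named after their values were seen. Alternatives were the filter on dim probe sets, an offset of 32, an intensity trend, array weights, quantile normalization, median centring, 1 probe set for each gene, the replicate number as a block, an RNA quality covariate, an exact rank-sum permutation test and leaving out each heart.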

Additional observations from a re-analysis of the deposited data

Results flagged for a closer look

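In 3 of 30 sets of 6 hearts (15 probe sets in 2 groups), 1 heart stood apart from the other 5 by more than Dixon's 95% limit, which chance exceeds in about 1 of 20 sets. For Vim, failing replicate 5 lay at 13.86, below the other failing hearts at 14.35 to 14.63 (log2). For Pdgfra, control replicate 4 lay at 10.78, below the other controls at 11.30 to 11.53, and without it the difference was 0.24. For Fap, control replicate 1 lay at 7.38, below the other controls at 8.04 to 8.32, and without it the difference was 0.02, while without failing replicate 1, at 7.36, it was 0.32.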

How the results depend on the processing

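Over all probe sets the count of members called was 0, 5 with an intensity trend and robust variances, and 0 to 2 when 1 heart was left out, the 2 coming without failing replicate 5. Among the brighter probe sets it was 5, 8 with array weights, 6 with the RNA quality covariate and 3 of 10 with 1 probe set for each gene. It ran from 0 to 6 when 1 heart was left out. By the exact rank-sum permutation test it was 0, with 8 at an unadjusted p under 0.05. That test could call no probe set here. Even where the groups did not overlap, at its smallest possible p of 0.00216, the adjusted p was 0.0825. The calls in the whole table moved too, from 429 higher and 230 lower to 604 and 410 with the trend, 1203 and 1067 with array weights, 222 and 59 with the replicate block, 395 and 136 with arrays centred on their medians, 0 and 0 by the rank-sum test, and between 20 and 1035 higher and 4 and 1048 lower with 1 heart left out. Replicate numbers are shared by the groups, but the deviations of same-numbered hearts correlated at only -0.0602 to 0.23 and were closest to their own number in 2 of 6 pairs; with the replicate block 5 members were called, the same 5. The number of probe sets with a difference above 0 was 15 under each other normalization and variance model, and 14 or 15 with 1 heart left out. Ddr2 1368673_at alone changed sign, its difference running from -0.052 to 0.20. The limits are 6 hearts in each group, no detection calls, and dim probe sets, such as Thy1 1369651_at, that spread widely on the log2 scale.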
